A study of Homo sapiens with 6 samples.

Results

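Integrins are heterodimeric adhesion receptors, each made of an α and a β subunit, that hold epithelial cells to the extracellular matrix and connect the matrix to the actin or keratin cytoskeleton. The ligand depends on the pair. α2β1 binds collagen, α3β1 and the α6 integrins bind laminins, and α5β1 and the αv integrins bind fibronectin, vitronectin or the latency peptide of TGF-β through an RGD motif. The subunits described here are 10 that epithelial cells are known to use, namely ITGA2, ITGA3, ITGA5, ITGA6, ITGAV, ITGB1, ITGB3, ITGB4, ITGB5 and ITGB6. They were found on the array through the RefSeq accession of each probe, which gave 11 probes for the 10 genes, out of 58201 gene probes and 22435 genes with a measured probe.

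The cells were AGS, an established line from a human gastric adenocarcinoma, kept in medium with serum and collected 48 h after transfection. Controls received a nontargeting siRNA (si-Control), and the knockdown group received si-C1GALT1-3, an siRNA against C1GALT1. C1GALT1 is the galactosyltransferase that extends the Tn antigen to the core 1 O-glycan. Each group had 3 samples on 1 array each, both groups were the same parental line, and a single siRNA against a single line was used. The labels do not say whether the samples were separate cultures, so the p-values measure the spread between these samples, which may be technical. Arrays with the same replicate number shared a slide, and the si-Control array had the same position on each of the 3 slides, so position and treatment cannot be told apart. Each array measured the RNA of a whole culture, so fewer cells with a transcript and less of it per cell cannot be told apart.

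The share of gene spots that were well above background ran from 66.2% to 72.7% over the arrays, and none was saturated. The 66.2% was on si-Control replicate 2, with the spots of the low region described next included. A central rectangle of the si-Control replicate 2 array had very low signal, and its 9712 gene spots (15.9%) were set to missing on that array. Values below are quantile-normalized log2 signals of a probe, and they can be compared between arrays but not between genes. The marker sums given below add signals over genes on each array. They too serve only to compare arrays, and bright probes weigh most in them. C1GALT1 itself was at 12.22, 13.03 and 12.62 in si-Control samples 1, 2 and 3 and at 11.76, 11.98 and 11.13 in si-C1GALT1-3 samples 1, 2 and 3. Its fitted log2 fold change came to -1.0 (standard error 0.31, adjusted p = 0.265 by limma), lower in every knockdown sample than in every control but short of the threshold. All 12 epithelial markers examined, among them EPCAM, KRT8 and KRT18, were well above background. So were 5 of 9 fibroblast, 4 of 6 endothelial and 4 of 5 leukocyte markers with a probe, while LUM, POSTN, TEK and ITGB2 were not on any array. Over the 11 epithelial markers measured on all arrays, the summed normalized signal ran from 623000 to 799000 in si-Control and from 510000 to 723000 in knockdown samples. Of the 12 epithelial markers 10 were lower and 2 higher. ELF3, masked on si-Control replicate 2 and outside that sum, met the call rule given below (log2 fold change 1.04, standard error 0.18). Over the 6 fibroblast markers measured on all arrays, the summed signal ran from 802 to 2010 in si-Control and from 1250 to 2350 in knockdown samples. For 5 endothelial markers it ran from 3470 to 4280 and from 2940 to 3230, and for 5 leukocyte markers from 13000 to 21400 and from 12500 to 13900. Most of the leukocyte sum came from PTPRC, read from the brightest of its 5 probes. That probe was at 14.34, 13.94 and 13.63 in si-Control samples and at 13.73, 13.56 and 13.63 in knockdown samples. The other leukocyte markers were at 7.98 or below on every array. PDGFRB, a fibroblast marker masked on si-Control replicate 2 and so outside these sums, was at 13.46 and 13.19 in the other controls and at 12.44, 12.40 and 12.71 in knockdown samples. COL3A1, a fibroblast marker within the sums, went the other way. It was at 8.22, 9.83 and 8.73 in si-Control samples and at 10.02, 10.53 and 9.72 in knockdown samples. Of the 9 fibroblast markers, 7 had a negative and 2 a positive log2 fold change. The part of these signals in the results was not tested.

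A gene was called changed at an unadjusted p under 0.01 in limma with at least a 2-fold difference. By that rule 2 of the 10 subunits changed, ITGA2 downward and ITGB6 upward, where 3.41% of all 22433 genes tested did (2.08% higher and 1.33% lower) and 2.64% of all probes. After Benjamini-Hochberg adjustment over all probes by limma, none of the 10 had an adjusted p under 0.05, which 49 of 58195 probes had (0.0842%, or 0.138% of genes). Unadjusted, 4 of the 10 had a limma p under 0.05, namely ITGA2, ITGAV, ITGB5 and ITGB6, beside 16.6% of all genes. The 3 knockdown arrays lay below the 3 control arrays for ITGA2, ITGA5, ITGAV and ITGB5 and above them for ITGB6. Over all genes 11.2% were separated downward in this way and 14% upward. The median log2 fold change of the 9 subunits other than ITGB3, which was not well above background, was -0.31, with 7 lower and 2 higher, against 0.02 over all genes.

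**Figure D1:**
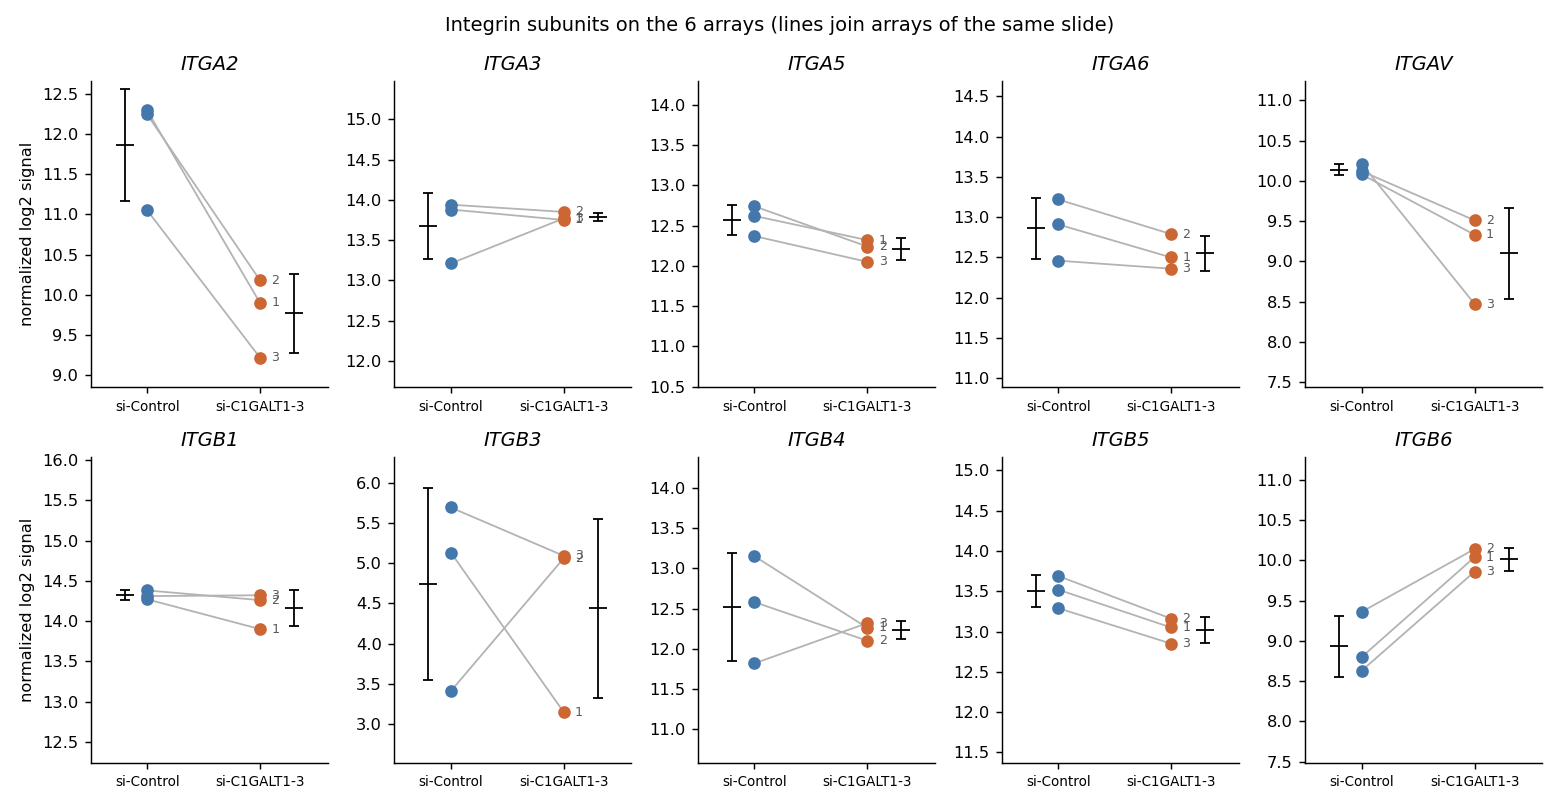
Normalized log2 signal (y axis, each panel spanning the same range) of the 10 integrin subunits in si-Control (blue) and si-C1GALT1-3 (orange) samples; lines join arrays of the same slide, numbered 1 to 3, and black bars show the mean ± SD (n = 3). ITGA2 fell from a mean of 11.86 to 9.77 and ITGB6 rose from 8.93 to 10.01, while ITGB3 had no array well above background.

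The RefSeq start regions of both subunits that changed are shown so that they can be set side by side, from 250 bases before to 50 bases after the annotated start (GRCh38.p14). Capitals mark GGGCGG, the GC box, on either strand.
ITGA2, chr5:52989102-52989401, plus strand: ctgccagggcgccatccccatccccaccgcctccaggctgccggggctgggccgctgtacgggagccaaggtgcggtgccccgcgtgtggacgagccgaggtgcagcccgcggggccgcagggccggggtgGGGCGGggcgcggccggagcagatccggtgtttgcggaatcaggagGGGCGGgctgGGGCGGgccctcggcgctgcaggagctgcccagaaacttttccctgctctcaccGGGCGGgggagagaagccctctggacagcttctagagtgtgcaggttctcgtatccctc
ITGB6, chr2:160200223-160200522, minus strand: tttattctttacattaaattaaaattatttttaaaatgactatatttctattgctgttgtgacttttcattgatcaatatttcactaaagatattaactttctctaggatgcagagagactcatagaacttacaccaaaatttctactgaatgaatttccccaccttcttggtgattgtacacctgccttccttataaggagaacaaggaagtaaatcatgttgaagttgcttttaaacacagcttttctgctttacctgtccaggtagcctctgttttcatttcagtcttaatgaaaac

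The start regions differ in composition. The ITGA2 window was 72.7% G and C, with a ratio of observed to expected CpG of 0.69, and held GGGCGG 4 times. The ITGB6 window was 31.7% G and C, held no CpG and none of the 4 motifs searched on both strands. The medians over all 35116 RefSeq windows were 58.7% and 0.58. GGGCGG occurred in 45% of those windows, CCAAT in 34.6%, TATAAA in 11.5% and TGANTCA, the AP-1 motif, in 7.71%. Windows were listed for 7 of the 10 subunits, 12 in all, without ITGA3, ITGB3 and ITGB4. TGANTCA was found once, at ITGA5, and neither ITGAV window held any of the 4 motifs. No measurement of binding or chromatin was used here, so these matches describe the sequences alone.

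ITGA2 encodes the α2 subunit, which pairs with β1 as the main collagen receptor of many epithelia, and it had the largest difference of the 10. Its signal was 12.29, 12.24 and 11.05 in si-Control samples 1, 2 and 3, against 9.90, 10.18 and 9.22 in the knockdown samples. Every knockdown sample was below every control, and sample 3 was the lowest of its group in both. The mean fell from 11.86 ± 0.70 (SD, n = 3) to 9.77 ± 0.49 (SD, n = 3). Its fitted log2 fold change came to -2.09 (standard error 0.43, adjusted p = 0.15 by limma), a 4.26-fold fall with a 95% interval from 2.04-fold to 8.90-fold. The absolute difference was above that of 99.6% of the probes on the array. Within slides 1, 2 and 3 the knockdown array was lower by log2 differences of -2.39, -2.06 and -1.82. ITGA2 was lower under all 18 alternatives and met the rule under 12 of them. It no longer met it without si-Control sample 1 (-1.89), si-Control sample 2 (-1.91), si-C1GALT1-3 sample 1 (-2.16) or si-C1GALT1-3 sample 3 (-1.81), nor without normalization between arrays (-1.96) or by the methods' t-test. Over the alternatives its adjusted p ran from 0.0464, with dim probes left out, to 0.533.

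The 3 genes whose centred signal over the 6 arrays was nearest to that of ITGA2, among 14157 genes well above background on all arrays, were PSAT1, MBNL2 and CLMN. Their root mean square differences from ITGA2 were 0.207, 0.223 and 0.24 log2 units. PSAT1, an enzyme of serine synthesis, differed by -1.83 on the log2 scale (standard error 0.55) without meeting the rule. MBNL2, an RNA-binding splicing regulator, fell by 1.75 (standard error 0.38) on the log2 scale and met it. CLMN, which encodes calmin, had -1.81 (standard error 0.54) and did not. All 3 were picked for this likeness, so their differences are a description.

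The laminin receptor subunits had smaller differences, and none met the rule. ITGA3, the α3 partner of β1 on laminin-rich basement membranes, was at 13.88, 13.94 and 13.21 in si-Control samples and at 13.75, 13.85 and 13.77 in knockdown samples. The groups overlapped, and the log2 fold change was fitted at 0.11 (standard error 0.23, 95% interval -0.45 to 0.68), and the sign turned to -0.12 without si-Control sample 3. ITGA6, the α6 partner of β1 or β4, was read by a pair of probes with nearly the same values. The brighter probe was at 12.91, 13.22 and 12.46 in si-Control samples and at 12.50, 12.79 and 12.36 in knockdown samples. Its fitted log2 fold change came to -0.31 (standard error 0.24, 95% interval -0.91 to 0.29), and the other probe also gave -0.31 (standard error 0.23). The knockdown array was the lower of the pair on all 3 slides, by log2 differences of -0.41, -0.42 and -0.10, although the groups overlapped.

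ITGB4, the β4 subunit that joins α6 to keratin filaments in hemidesmosomes, was at 13.15, 12.58 and 11.82 in si-Control samples and at 12.26, 12.10 and 12.32 in knockdown samples. The spread was almost all among the controls, with an SD of 0.67 against 0.11 in the knockdown group. Its fitted log2 fold change came to -0.29 (standard error 0.35, 95% interval -1.15 to 0.57), and it was 0.03 without si-Control sample 1. The slides did not share a direction, with log2 differences of -0.89, -0.48 and 0.49 on slides 1, 2 and 3.

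ITGB1, the common β1 partner of α2, α3, α5, α6 and αv, was printed at 10 places on each array. Its signal was 14.27, 14.38 and 14.31 in si-Control samples and 13.90, 14.26 and 14.32 in knockdown samples. Its fitted log2 fold change came to -0.16 (standard error 0.16, 95% interval -0.56 to 0.24, adjusted p = 0.714 by limma), so a 2-fold change in either direction lay outside the interval while the partner ITGA2 was 4.26-fold lower. The SD between its spots of an array was 0.04 to 0.08 log2 units. In the low central region, 4 of the spots read between 45.4 and 8360 on the si-Control replicate 2 array and between 16200 and 25900 on the other si-Control arrays, in processed fluorescence units before normalization. With that region kept the log2 fold change was 0.44, the opposite sign.

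**Figure D2:**
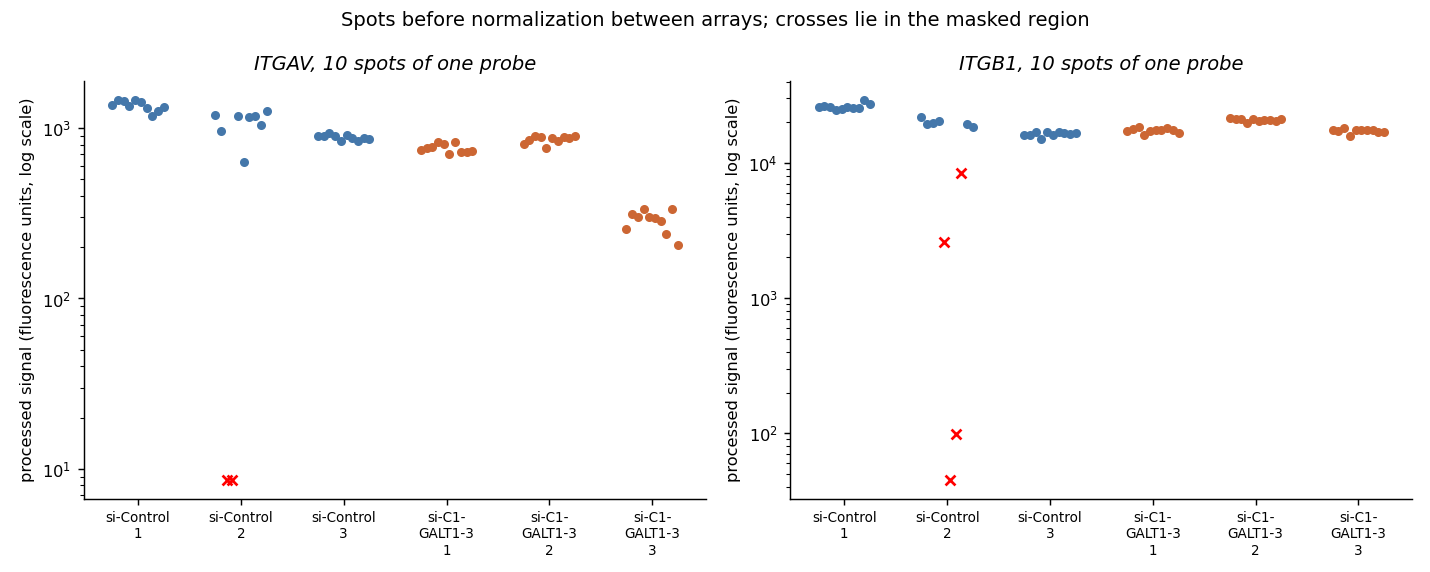
Processed fluorescence signal before normalization between arrays (log scale) of the 10 spots of the ITGAV probe and the 10 spots of the ITGB1 probe on each array, with red crosses for spots in the masked region of si-Control replicate 2. Outside that region the ITGB1 spots of an array lay close together, the ITGAV spots of si-Control replicate 2 ran from 633 to 1260, and the 10 ITGAV spots of si-C1GALT1-3 replicate 3, from 205 to 336, lay below those of every other array outside the region.

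The RGD-binding group holds the αv chain and its β partners, of which ITGB6 rose. ITGAV, the αv chain, was at 10.08, 10.12 and 10.21 in si-Control samples and at 9.33, 9.51 and 8.47 in knockdown samples. Every knockdown sample was below every control, and sample 3 was far below the other knockdown samples. The mean was 10.14 ± 0.07 (SD, n = 3) against 9.10 ± 0.56 (SD, n = 3). The log2 fold change of -1.03 (standard error 0.29, 95% interval -1.76 to -0.31, adjusted p = 0.237 by limma) passed 2-fold and missed the p of the rule. Without si-C1GALT1-3 sample 3 it was -0.71, and with the dim probes left out it met the rule (adjusted p = 0.129 by limma).

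The ITGAV probe was also printed at 10 places, which separates error within an array from differences between arrays. The median processed signal of its spots was 1360, 1170 and 886 for si-Control 1, 2 and 3, against 752, 876 and 299 for the knockdown arrays in the same order. The SD between spots was 0.05 to 0.10 log2 units on 4 of the arrays, 0.23 on si-C1GALT1-3 array 3 and 0.32 on si-Control array 2. On the latter, the spot lying 5 columns outside the masked region read 633, and the other unmasked spots read 957 to 1260. In the masked region lie 2 of its 10 spots, and with that region kept the log2 fold change of ITGAV was -0.7 (standard error 0.43). With the region widened by 10 rows and columns, chosen after seeing the data, it was -1.04.

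ITGB6 encodes β6, a partner of αv that is restricted to epithelia and activates latent TGF-β, and it was the only one of the 10 called higher. Its signal was 8.80, 9.36 and 8.63 in si-Control samples and 10.04, 10.14 and 9.86 in knockdown samples. All knockdown samples were above all controls and lay closer together, at 10.01 ± 0.14 (SD, n = 3) against 8.93 ± 0.38 (SD, n = 3). Its fitted log2 fold change came to 1.08 (standard error 0.23, adjusted p = 0.155 by limma), a 2.12-fold rise with a 95% interval from 1.43-fold to 3.13-fold. Within slides 1, 2 and 3 the log2 differences were 1.24, 0.78 and 1.23. ITGB6 was higher under all 18 alternatives and met the rule under 11. It no longer met it without si-Control sample 1 (1.03), si-Control sample 3 (0.92), si-C1GALT1-3 sample 1 (1.07) or si-C1GALT1-3 sample 2 (1.02), nor with the central region kept (0.94), without normalization between arrays (1.21) or by the methods' t-test.

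ITGB5, the β5 partner of αv on vitronectin, was at 13.52, 13.69 and 13.29 in si-Control samples and at 13.05, 13.16 and 12.85 in knockdown samples. The groups did not overlap, and the slides gave nearly the same log2 difference, -0.47, -0.53 and -0.44. The log2 fold change of -0.48 (standard error 0.17, adjusted p = 0.309 by limma) is a 1.39-fold difference, with a 95% interval from -0.90 to -0.06 that stays short of 2-fold. ITGA5, the α5 chain of the fibronectin receptor, was at 12.62, 12.74 and 12.37 in si-Control samples and at 12.32, 12.24 and 12.05 in knockdown samples. Its groups did not overlap either, and the log2 fold change was fitted at -0.37 (standard error 0.16, 95% interval -0.76 to 0.03, adjusted p = 0.395 by limma).

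ITGB3, the β3 partner of αv known best from platelets and endothelium, was not well above background on any of the 6 arrays. Its normalized log2 signal ranged from 3.15 to 5.69 with no separation of the groups, and no fold is given. Of the 10 subunits, 5 (ITGA3, ITGA5, ITGA6, ITGB1 and ITGB5) had a 95% interval inside 2-fold in either direction.

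**Figure D3:**
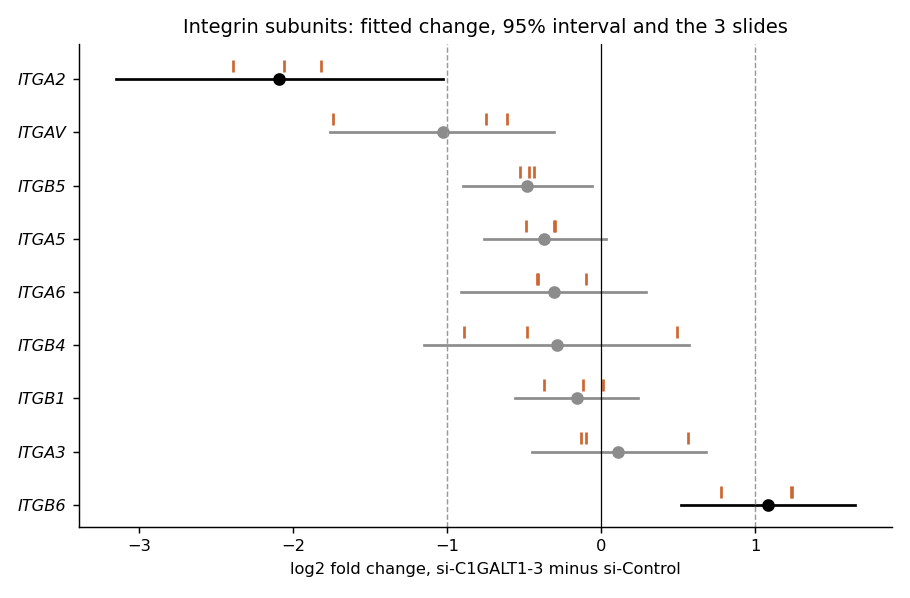
Fitted log2 fold change of 9 integrin subunits, without ITGB3, si-C1GALT1-3 minus si-Control (x axis), with the 95% interval from limma (horizontal line) and the difference within each of the 3 slides (orange ticks); black marks the called subunits and dashed lines mark 2-fold. ITGA2 lies at -2.09 and ITGB6 at 1.08, and the slide values of ITGB5 lie between -0.53 and -0.44.

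The 16 other integrin subunits were taken as the closest comparison, and none met the rule. Their log2 fold changes ran from -0.78 to 0.34. Over the 14 well above background on any array the median was -0.13, with 12 lower and 2 higher, so these also leaned downward. Of the 16, 12 were well above background throughout at least 1 group. The lowest value was that of ITGB8, an αv partner that also binds latent TGF-β, at 7.45, 7.11 and 7.95 in si-Control samples and 6.87, 6.66 and 6.64 in knockdown samples (log2 fold change -0.78, standard error 0.24, adjusted p = 0.264 by limma). For ITGB8 it was -0.98 with the masked region kept or widened by 10 rows and columns, or without si-Control sample 2. The rule was not met in any of these. The highest was that of ITGA1, another collagen-binding α chain, with 0.34 (standard error 0.32, adjusted p = 0.696 by limma) and 2 control samples, because its spot lies in the masked region. ITGAL had -0.77 (standard error 0.18, adjusted p = 0.175 by limma). The groups did not overlap for 2 of the 16 downward, ITGB8 and ITGAL, and for 0 upward, beside 11.2% and 14% of all genes. Whether ITGA2 and ITGB6 differ from these subunits was not tested.

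Other genes of integrin adhesion were followed in 5 lists, the 16 subunits among them, 143 genes in all. Of these 5 met the rule, 3 higher and 2 lower, or 3.5% against 3.41% of all genes, a share near the background. All 5 were well above background on every measured array.

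Of the 45 adaptors and kinases that link integrins to actin, PARVA and CRKL fell and none rose. PARVA encodes α-parvin, which binds integrin-linked kinase and actin, and was at 10.06, 10.52 and 10.33 in si-Control samples and at 8.95, 9.16 and 9.13 in knockdown samples. Its groups were well apart, and its fitted log2 fold change came to -1.22 (standard error 0.17, adjusted p = 0.091 by limma), a 2.33-fold fall that met the rule in all 18 alternatives. CRKL, an adaptor downstream of p130Cas, had 8.0 and 8.94 in si-Control samples 1 and 3 and 6.63, 6.94 and 6.56 in knockdown samples, and the log2 fold change was fitted at -1.76 (standard error 0.34, adjusted p = 0.157 by limma). The spot of CRKL lies in the masked region, so si-Control sample 2 was left out of its fit. With the region kept its difference was -0.06, and without any of the knockdown samples in turn (-1.72, -1.88 and -1.69) with the replicate block (-1.88) or by the methods' t-test the rule was not met. The partners of PARVA differed less, with log2 fold changes of -0.07 for ILK (adjusted p = 0.946 by limma) and -0.31 for LIMS1 (adjusted p = 0.431 by limma). Of the talins, TLN1 had 0.28 and TLN2 had -0.89 (standard error 0.36, adjusted p = 0.36 by limma), the latter with the groups apart. Focal adhesion kinase, PTK2, had 0.19. Over the 42 genes of the list well above background on any array, the median was -0.08. Of the 45, the groups did not overlap for 10 downward and for 2 upward, TNS2 (0.71) and KANK1 (0.79). Among the 10, PXN, CRKL, TNS1, ACTN4 and APBB1IP had only 2 control samples, with which groups separate more easily. APBB1IP was also not well above background on any array. Over all genes these shares were 11.2% and 14%. The highest value in the list, 0.82 for TNS3 (standard error 0.59), did not meet the rule.

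Of the 28 genes of integrin inhibition, trafficking and lateral partners, CD82 rose and none fell. CD82 is a tetraspanin that associates with integrins in the membrane. It was at 8.40 and 8.58 in si-Control samples 1 and 3 and at 10.12, 9.94 and 9.72 in knockdown samples, and the log2 fold change was fitted at 1.44 (standard error 0.19, adjusted p = 0.104 by limma). Its spot also lies in the masked region and si-Control sample 2 was left out. The rule was met in 17 of 18 alternatives, and not with the replicate block (1.43). The tetraspanins CD151, known as a partner of α3 and α6, and CD81 had log2 fold changes of -0.21 and 0.03. ACAP1 had 1.16 (standard error 0.42) and DAB2 had 0.98 (standard error 0.32), both with the groups apart and neither meeting the rule. Of the 28 genes, the groups did not overlap for 6 upward and 1 downward, beside 14% and 11.2% of all genes. ITGB3BP had the lowest value, -0.64 (standard error 0.20), and did not meet the rule.

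No gene of the 19 laminins and hemidesmosome components met the rule. COL17A1, the transmembrane collagen of hemidesmosomes, had the highest log2 fold change of the list, at 8.55, 8.81 and 10.28 in si-Control samples and 10.52, 10.37 and 12.03 in knockdown samples. The groups did not overlap, sample 3 was the highest of each group, and the fitted log2 fold change came to 1.76 (standard error 0.64, adjusted p = 0.321 by limma). With the replicate as a block the same difference had a standard error of 0.14 and met the rule, as it did without normalization between arrays (1.87). The laminin chains LAMA3 and LAMB3, parts of ligands of α3β1 and α6β4, had log2 fold changes of -0.17 and 0.15. LAMB2, a β chain of other laminins, was at 12.69 and 12.54 in si-Control samples 1 and 3 and at 13.69, 13.62 and 13.35 in knockdown samples. Its groups were apart, and its difference of 0.94 (standard error 0.18, adjusted p = 0.162 by limma) was under 2-fold. LAMC1, the γ chain of many laminins, had 0.56 (standard error 0.19, adjusted p = 0.289 by limma), also with the groups apart. The lowest value was that of DST, a plakin of hemidesmosomes, with -0.53 (standard error 0.21) on its brightest probe, and other DST probes ran from -0.44 to 0.33.

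Of the 35 other matrix ligands, SPP1 and COL4A5 rose and none fell. SPP1, osteopontin, an RGD ligand of the αv integrins, was at 8.23, 7.57 and 7.79 in si-Control samples and at 9.42, 8.78 and 9.35 in knockdown samples. Its groups were apart, and the log2 fold change was fitted at 1.32 (standard error 0.26, adjusted p = 0.142 by limma). It no longer met the rule without si-Control sample 3 (1.27), si-C1GALT1-3 sample 1 (1.20) or si-C1GALT1-3 sample 3 (1.23), or without normalization between arrays (1.42). COL4A5, a basement membrane collagen chain, had 12.44 and 12.80 in si-Control samples 1 and 3 and 13.70, 13.95 and 13.42 in knockdown samples, and the log2 fold change was fitted at 1.07 (standard error 0.24, adjusted p = 0.193 by limma) and si-Control sample 2 left out for the masked spot. It did not meet the rule without si-Control sample 1 (0.88) or 3 (1.25) or si-C1GALT1-3 sample 1 (1.06) or 2 (0.95), after 75th percentile normalization (0.99), with the replicate block (0.94), by the methods' t-test, in the series table (1.04), without normalization or with the region kept (2.44). Fibronectin, FN1, had 0.26 (adjusted p = 0.698 by limma). FGB, a fibrinogen chain, had the highest value, 1.77 (standard error 0.82, adjusted p = 0.415 by limma), with overlapping groups, and met the rule with the replicate block (standard error 0.11). VWF had the lowest value, -1.03 (standard error 0.29) with 2 control samples, and its other probe gave 0.45. It met the rule with dim probes left out.

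**Figure D4:**
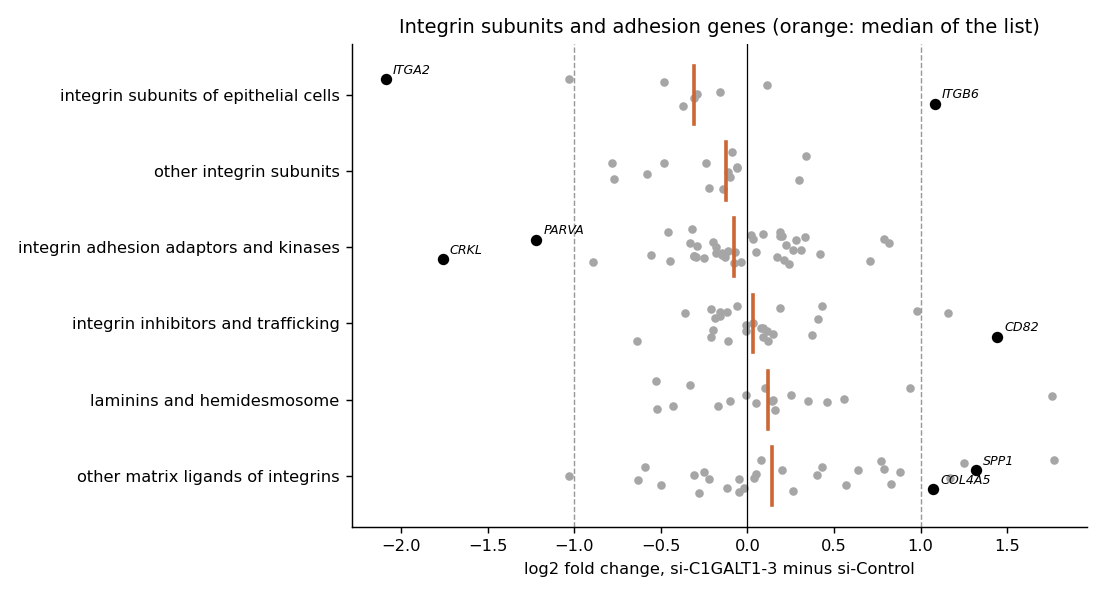
Log2 fold change, si-C1GALT1-3 minus si-Control (x axis), of the integrin subunits and of the 5 adhesion lists, with 1 point per gene, genes not well above background on any array left out, black and named where the rule was met, an orange line at the median of each list and dashed lines at 2-fold. The medians lie between -0.31 for the 9 subunits drawn and 0.14 for the other matrix ligands, and the points called are ITGA2, ITGB6, PARVA, CRKL, CD82, SPP1 and COL4A5.

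**Figure D5:**
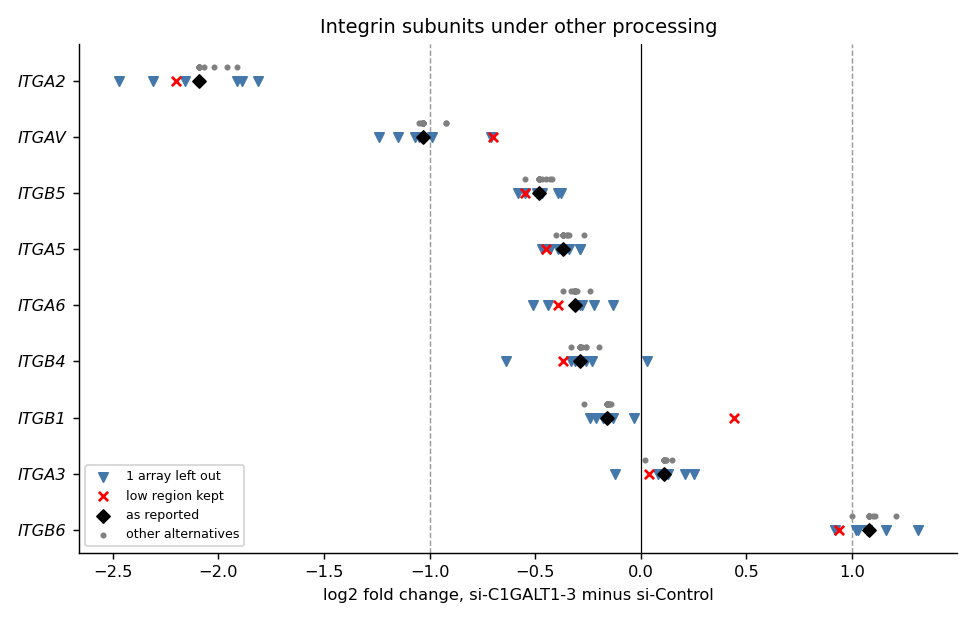
Log2 fold change, si-C1GALT1-3 minus si-Control (x axis), of 9 integrin subunits, without ITGB3, as reported (black diamond), with 1 array left out (triangles), with the low central rectangle kept (red crosses) and under the other alternatives (grey dots). ITGA2 stays between -2.47 and -1.81 and ITGB6 between 0.92 and 1.31, while ITGB1 moves to 0.44 with the rectangle kept.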

How the data were processed

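RNA of 3 si-Control and 3 si-C1GALT1-3 samples of AGS cells was hybridized to 1-colour Agilent arrays. The authors deposited Agilent Feature Extraction output (version 10.5.1.1, per the labels), where each spot has a processed fluorescence intensity, background-corrected and detrended by that software, with no scaling across arrays. A deposited series table gives a second, background-subtracted intensity per spot. The study's methods name quantile normalization and limma, and both were followed here.

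The processed intensity of 60901 gene spots was taken as log2. Spots marked as non-uniform or population outliers (100 to 424 per array) and those of the low-signal region of si-Control replicate 2 were set to missing. Arrays were quantile normalized, replicate spots were averaged per probe, and limma 3.58.1 in R 4.3.3 compared the groups over 58195 probes. The number of arrays limits the precision. Probes were named through RefSeq genes of GRCh38.p14, which gave 31100 probes a symbol, while the array files name GRCh37. Each gene is represented by its brightest probe. The call rule is the study's.

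Genes named are the 10 subunits, C1GALT1, from each adhesion list the called genes and the largest rise and fall among genes detected (well above background throughout a group), and the 3 genes nearest to ITGA2. ITGAL, ILK, LIMS1, TLN1, TLN2, TNS1, TNS2, KANK1, PTK2, PXN, ACTN4, APBB1IP, CD151, CD81, ACAP1, DAB2, LAMA3, LAMB3, LAMB2, LAMC1, FN1 and the markers PDGFRB, COL3A1, PTPRC and ELF3 were added after their values were seen. The members, the masked region and the lists were chosen with earlier results of these data known.

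The replicate numbers pair the samples through the slide. Deviations from the group means correlated at 0.198, 0.215 and 0.329 between arrays numbered 1, 2 and 3 (48794 probes), so the replicate number was also fitted as a block. Other alternatives were 75th percentile or no normalization, normexp on the median spot signal (the mean signal is not used here), the series table, dim probes left out, the region kept or widened, a trended robust prior, the methods' t-test, flagged spots kept, the mean over the probes of a gene, and each array left out. The fit was tested on simulated data.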

Additional observations from a re-analysis of the deposited data

How the results depend on the processing

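The number of integrin subunits called, 2 as reported, was 0 with no normalization between arrays or with the methods' t-test and 1 when the low rectangle on the second si-Control array was kept. Leaving out 1 array at a time gave 0 to 1, the 0 coming when array 1 of either group was dropped. The 5 genes called in the adhesion lists were 3 with the region kept or by the t-test, and 2 to 6 with each array left out, the lowest without si-C1GALT1-3 replicate 1. Over the whole array 1538 probes were called, 62.5% of them higher. The count was 920 with normexp on the median signal and 896 by the t-test, and 1126 to 1781 with each array left out. The share called higher was 72.6% with no normalization and 40.2% with the region kept. C1GALT1 met the rule with dim probes left out (-1.0, adjusted p = 0.151 by limma), and its log2 fold change was -1.20 to -0.75 with each array left out. Subunits that did not meet the rule changed sign as follows. With each array left out, ITGA3 ran from -0.12 to 0.25 and ITGB4 from -0.64 to 0.03, with the sign turned without si-Control replicate 3 for ITGA3 and without si-Control replicate 1 for ITGB4. ITGB3, with no array well above background, was not followed. ITGB1 had 0.44 with the region kept. For ITGB1 and the region, 4 of its 10 spots lie there, and for the other results the cause was not tested. With the replicate as a block the counts were 2 subunits and 5 adhesion genes, and ITGA2 (-2.09) and ITGB6 (1.08) met the rule. The 75th percentile moved the median of all probes by -0.11.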
